A study of Arabidopsis with 24 samples.

Results

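The genes described here were higher in low R:FR than in white light (WL) both in Col-0 and in pif47, a double mutant of PIF4 and PIF7, at or above the same minimum. They were chosen on the deposited values themselves. For each gene, r was the mean of the 3 low R:FR libraries plus 0.5 FPKM, divided by the mean of the 3 WL libraries plus 0.5 FPKM (FPKM, fragments scaled by the length of the transcript and the size of the library). A gene was a member with a mean of at least 1 FPKM over the 24 libraries and r of at least 2 in Col-0 and in pif47, and 86 of the 32833 genes in the deposited values met this rule. Another 13 genes met these values but were left out by name, because the rule takes no gene whose deposited name starts with IAA, SAUR, XTH, HAT, YUC, GH3 or EXP, and neither HFR1 nor PIL1. Of the 86 members, 61 are protein-coding in the RefSeq table of the TAIR10.1 assembly and 25 are not (13 long noncoding RNAs, 4 antisense RNAs, 3 small nuclear RNAs, 2 microRNA precursors, 2 small nucleolar RNAs and the chloroplast gene PSBI, which the table used here does not hold).

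RNA-seq measured the transcripts of whole Arabidopsis seedlings. They spent 6 days in WL and then either stayed there or received WL with a red to far-red ratio (R:FR) of 0.3 for 6 h, with 3 libraries for each of 8 groups. The 4 genotypes share the Col-0 background: Col-0 itself, pif47, dvl1-1D and bsk36. The line dvl1-1D carries an activation-tagging T-DNA in the promoter of RTFL18 (also called DVL1), a single insertion allele that overexpresses this small peptide from its own locus. The line bsk36 combines T-DNA insertions in BSK3 and BSK6, which encode receptor-like cytoplasmic kinases of brassinosteroid signaling, and pif47 combines mutations in PIF4 and PIF7. Nothing in the labels says that the 3 libraries of a group came from separate cultures. The p-values here thus measure the spread between libraries of a group, pooled over the 8 groups.

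Phytochrome B is the main red and far-red photoreceptor of light-grown seedlings. Far-red-rich light returns it to its inactive form, and PHYTOCHROME INTERACTING FACTORs (PIFs), basic helix-loop-helix transcription factors that active phytochrome B holds down, then accumulate and activate genes for auxin synthesis and cell elongation. PIF7, PIF4 and PIF5 are the PIFs best known for this response. The same light signal also reaches other phytochromes, HY5, B-box proteins, the circadian clock and the photosynthetic tissues.

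The altered genes followed the labels: PIF7 was at 0.53 to 1.34 FPKM in the 6 pif47 libraries and at 9.83 to 16.8 FPKM in the other 18, BSK3 was at 0 to 0.03 and BSK6 at 0.30 to 0.75 FPKM in bsk36 (20.6 to 29.3 and 7.83 to 17.2 FPKM elsewhere), and RTFL18 and PIF4 are described with the members. Library totals were 758368 to 801109 FPKM. How many reads lie behind a value is not known, so no counting error is given. Defining leaf markers summed to between 39940 and 49440 FPKM per library, root markers to between 960.2 and 2073 FPKM, and seed storage markers to between 0 and 5.01 FPKM. The sums of the root markers were lower in low R:FR (960.2 to 1447 FPKM) than in WL (1869 to 2073 FPKM) in Col-0, and their ranges in pif47 were 1653 to 1744 and 1747 to 2023 FPKM. In dvl1-1D they were 1415 to 1600 FPKM in low R:FR and 1761 to 1945 FPKM in WL, with no overlap, and in bsk36 1160.4 to 1517 and 1494 to 1547 FPKM. The root marker IRT1, an iron transporter gene, was called repressed in dvl1-1D and in bsk36 (log2 fold changes of -1.37 and -1.43). The root markers did not move together. In Col-0, r was 0.596 for PYK10, 0.320 for IRT1 and 0.625 for NRT2.1, but 1.05 for RCI3, 1.32 for COBL9 and 1.32 for EXPA7. The root markers split in the same way in pif47. Their part in the results was not tested, and in RNA of whole seedlings fewer cells of a type and less RNA per cell cannot be told apart. In bsk36, the low R:FR library 3 held the highest of the 3 values for 44 of the 59 protein-coding members whose 3 values were not all equal (74.6%) and for 31.7% of such genes among all tested. Without it, 38 members in place of 43 were called induced in bsk36 by the test described below.

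In Col-0, the values that chose the members ranged in r from 2.096 to 22.3 over the protein-coding members, with a median of 3.23. In pif47 they ranged from 2.02 to 21.5, with a median of 2.51. Dividing r in pif47 by r in Col-0 gave a median of 0.776, and r was the larger in pif47 for 13 of the 61 protein-coding members. The levels also differed, since all 3 low R:FR libraries of pif47 were below all 3 of Col-0 for 35 of the 61 and above them for 2 (12.5% and 16.6% of all tested genes), and the corresponding counts in WL were 26 and 2 (6.74% and 15.7% of all tested genes). These values are a description of how the members were chosen and were not tested. Each low R:FR library was above each WL library for 56 of the 61 in Col-0 and for 56 in pif47, where 24.5% and 18.8% of all tested genes showed the same, and these contrasts were used by the rule.

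**Figure D1:**
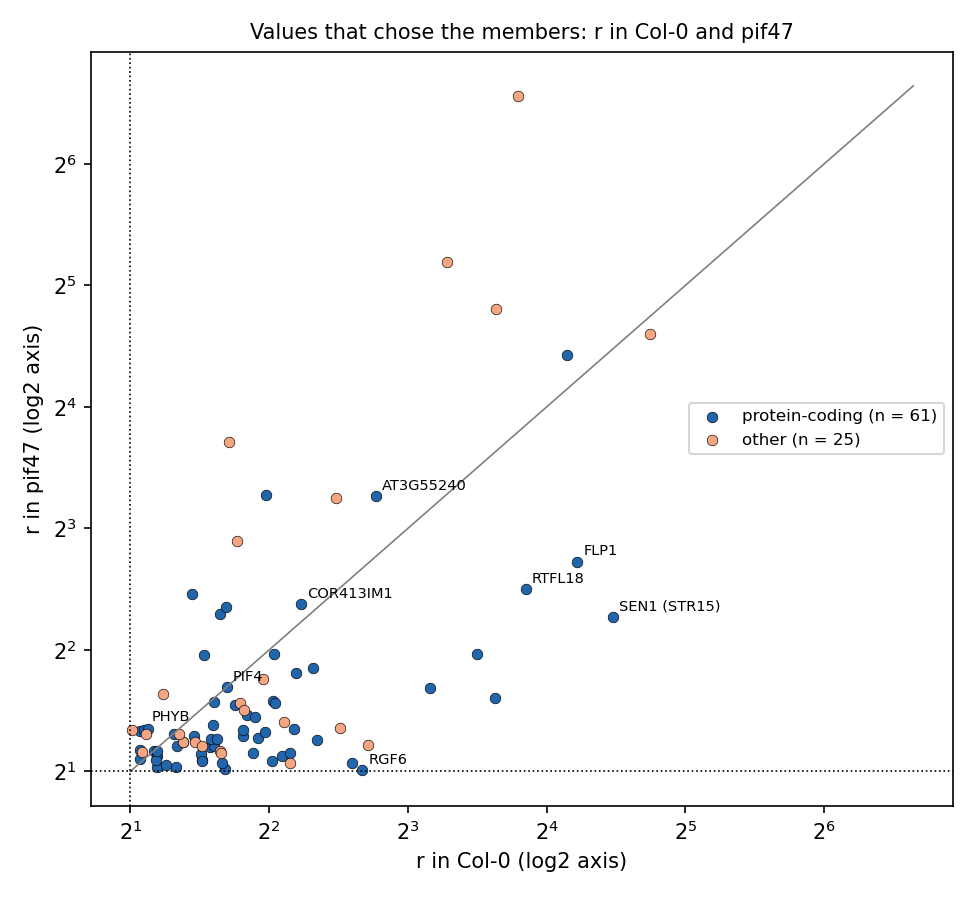
Ratio r of low R:FR to WL (group means plus 0.5 FPKM) in Col-0 (horizontal, log2 axis) and in pif47 (vertical, log2 axis) for the 86 members, with dotted lines at the threshold of 2 and a grey line at equal r. Most protein-coding members (blue) lie below the grey line, among them SEN1 with r of 22.3 in Col-0 and 4.84 in pif47, and the points highest above it are members that are not protein-coding (orange).

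Near the threshold in Col-0, the members with the smallest r were AT1G04587 (2.01), MIOX1 (2.096) and LHB1B2 (2.103), and the genes just outside it were AT3G05015 (1.99), CASP5 (1.98) and MIR838A (1.98). In pif47 the smallest were RGF6 (2.02), GASA7 (2.02) and PRXIIC (2.05), and the nearest outside were NAC029, DOF5.4 and AT1G07963, each at 1.99.

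The lines dvl1-1D and bsk36 entered the rule only through the mean level over all libraries, so the low R:FR response was tested in them. Induced genes were those with a log2 fold change of 1 or more and P no higher than 0.01 in limma, a moderated linear model fitted to log2(FPKM + 0.1) of all 20682 genes with a mean of at least 0.5 FPKM. All 86 members were tested. Of the 61 protein-coding members, 40 were induced in dvl1-1D (65.6%) and 43 in bsk36 (70.5%), and 36 in both. Over all tested genes, 1.32% were induced in dvl1-1D, 1.3% in bsk36 and 0.885% in both. The median log2 fold change of the protein-coding members was 1.31 in dvl1-1D and 1.42 in bsk36, beside 0.03 and -0.01 over all tested genes. No protein-coding member was called repressed in either line (a log2 fold change of -1 or lower with the same limit on P), where 0.45% and 0.701% of all tested genes were. At an unadjusted limma p under 0.05, AT1G54773 was lower in dvl1-1D and AT5G46085 in bsk36 (limma adjusted p of 0.0911 and 0.119). At an adjusted p under 0.05 with no minimum size, 47 of the 61 were higher in low R:FR in dvl1-1D and 53 in bsk36, beside 10.7% and 8.09% of all tested genes.

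Each low R:FR library was above each WL library for 52 of the 61 in dvl1-1D and for 53 in bsk36, beside 20.8% and 15.3% of all tested genes. In 51 of them this held in all 4 genotypes, beside 4.54% of all tested genes, but the Col-0 and pif47 side of that count was fixed in part by the rule. The 297 genes with r of at least 2 in Col-0 and under 2 in pif47, with the same names left out, included 242 protein-coding genes. Of these, 41.3% were induced in dvl1-1D and 40.5% in bsk36, with median log2 fold changes of 0.91 and 0.93. Their median r in Col-0 was 2.34, lower than the 3.23 of the protein-coding members, so both groups differed in Col-0 as well as in pif47, and the shares are given as a description.

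**Figure D2:**
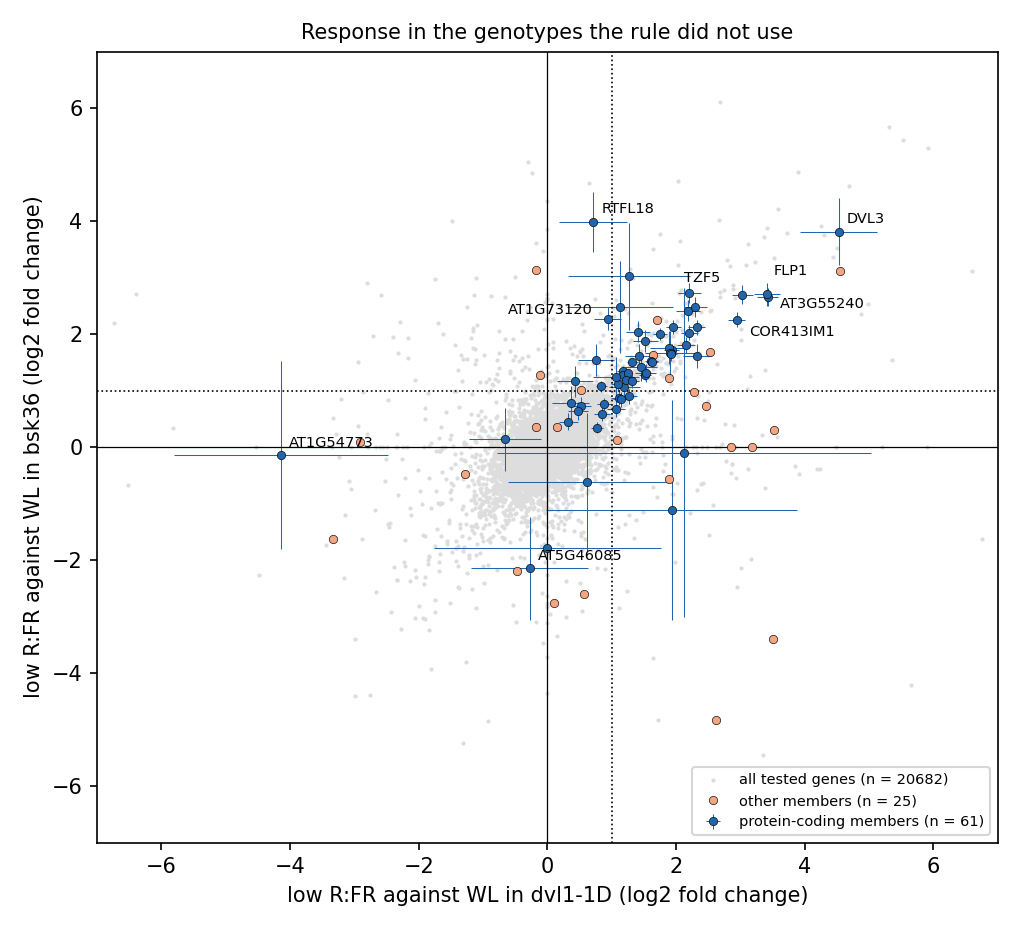
Log2 fold change of low R:FR against WL, on log2(FPKM + 0.1), in dvl1-1D (horizontal) and bsk36 (vertical), for all 20682 tested genes (grey), the 61 protein-coding members (blue, bars are standard errors) and the other 25 members (orange). Most protein-coding members lie beyond 1 (dotted lines) on both axes, RTFL18 is high in bsk36 alone, and the other members scatter on both sides of 0.

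Among genes of phytochrome signaling, PHYB, PIF4, PIF5, PIF6 and PKS4 were members. In each of them every low R:FR library was above every WL library in all 4 genotypes. The same held for 51 of the 61 protein-coding members and for 4.54% of all tested genes, and the rule used Col-0 and pif47. PHYB, which encodes the photoreceptor itself, had 21.0, 23.1 and 22.2 FPKM in the Col-0 libraries in WL and 57.1, 58.5 and 54.3 FPKM in low R:FR. The pif47 libraries had 22.5, 24.1 and 22.8 FPKM in WL and 55.4, 54.6 and 52.3 FPKM in low R:FR. The Col-0 and pif47 ranges overlapped in both light conditions. PHYB rose by a log2 fold change of 1.26 ± 0.055 (SE, limma adjusted p = 2.24e-12) in dvl1-1D and 1.31 ± 0.055 (SE, limma adjusted p = 1.19e-12) in bsk36.

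PIF4, 1 of the PIF genes mutated in pif47, still gave signal there. It had 1.64, 2.34 and 2.3 FPKM in the pif47 libraries in WL and 7.93, 8.05 and 7.67 FPKM in low R:FR, against 7.46, 7.21 and 6.68 FPKM (WL) and 23.8, 22.1 and 26.5 FPKM (low R:FR) in Col-0. The level in pif47 was thus lower in both light conditions, while r was 3.23 in Col-0 and 3.23 in pif47. In the tested lines PIF4 rose by a log2 fold change of 1.93 ± 0.14 (SE, limma adjusted p = 3.59e-09) in dvl1-1D and 1.66 ± 0.14 (SE, limma adjusted p = 3.62e-08) in bsk36. PIF6 (also PIL2), a related transcription factor gene, had 1.46, 1.47 and 1.65 FPKM in pif47 in WL and 5.48, 4.45 and 5.39 FPKM in low R:FR, and its log2 fold change was 2.21 ± 0.14 (SE, limma adjusted p = 3.44e-10) in dvl1-1D and 2.02 ± 0.14 (SE, limma adjusted p = 1.40e-09) in bsk36. PKS4, a phytochrome kinase substrate of phototropism, was induced by a log2 fold change of 1.53 in dvl1-1D and 1.32 in bsk36. PIF5 rose in both lines at an adjusted p under 0.05 but stayed under the minimum of 1, with log2 fold changes of 0.88 ± 0.11 (SE, limma adjusted p = 5.29e-06) and 0.76 ± 0.11 (SE, limma adjusted p = 3.05e-05).

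Of the 33 genes of light signaling listed for comparison (phytochromes, cryptochromes, PIFs, HY5, COP1 and SPA genes, B-box genes), 10 had r of at least 2 in Col-0 and 4 had it in pif47. Of all genes with a mean of at least 1 FPKM, 2.17% had it in Col-0 and 0.951% in pif47. The 6 of the 33 that had it in Col-0 alone were PHYA, FHL, PIF3, PAR1, PAR2 and BBX24. In dvl1-1D 7 of the 33 were induced and none was repressed, and the same counts were found in bsk36. Among the phytochrome genes, PHYB was induced in both lines, whereas PHYC, PHYD and PHYE had log2 fold changes between -0.13 and 0.26 and were not called. PHYA was induced in dvl1-1D (1.15) and was 0.94 in bsk36, under the minimum.

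**Figure D3:**
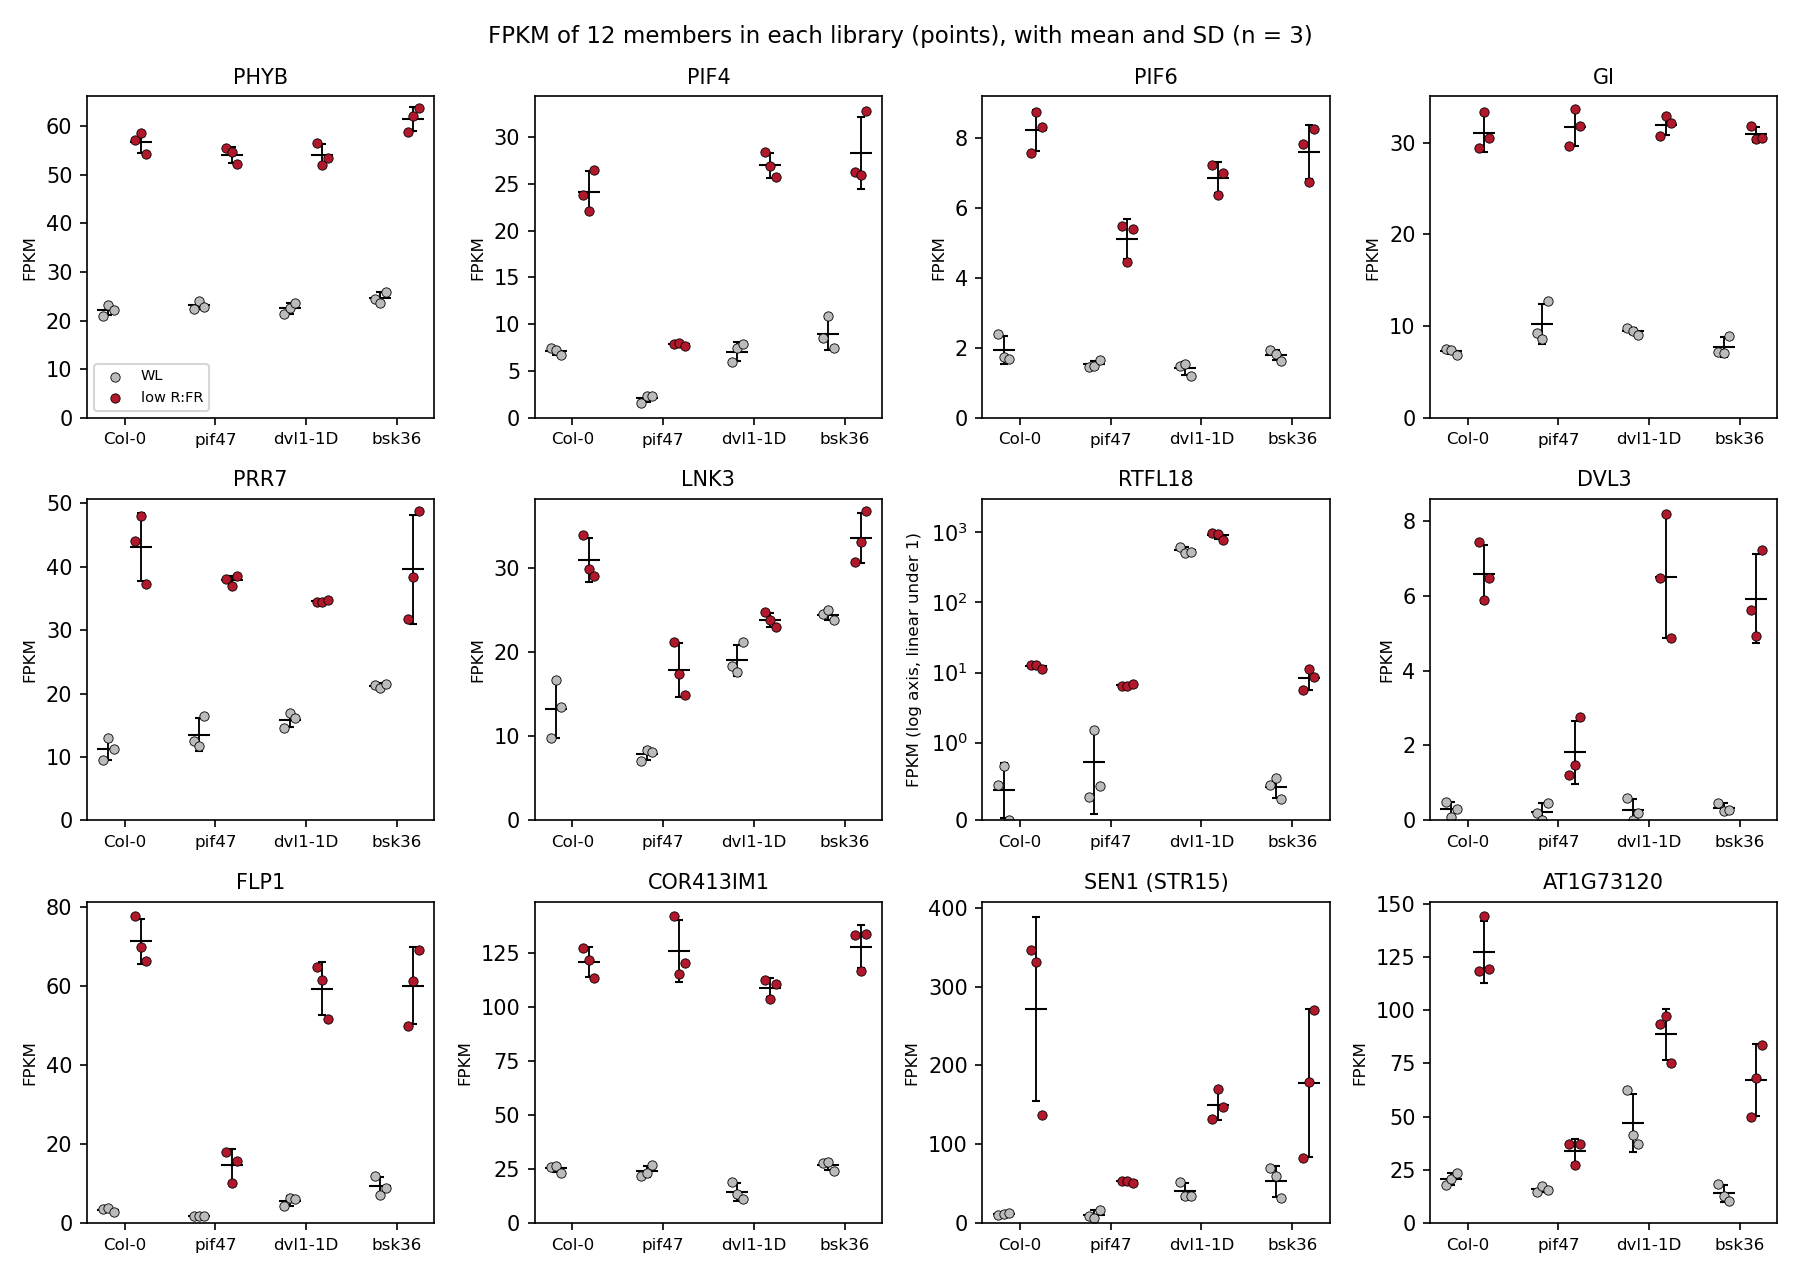
FPKM of 12 members in each library (points; grey in WL, red in low R:FR) with the mean and SD of the 3 libraries, by genotype, on axes that start at 0 (RTFL18 on a log axis that is linear under 1 FPKM). In low R:FR, PHYB lay between 52.1 and 63.6 FPKM and GI between 29.4 and 33.6 FPKM in all 12 libraries, while PIF4, DVL3, FLP1 and SEN1 were lower in every pif47 library than in every Col-0 library.

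Another set of members belongs to the circadian clock and to day-length signaling. It was put together after the values were seen and holds GI, PRR7, PRR9, LNK1, LNK3, LNK4, RVE7, CDF5, COL5, BBX28 and BBX29. All 11 had each low R:FR library above each WL library in all 4 genotypes. So did 51 of the 61 protein-coding members and 4.54% of all tested genes, and the rule used Col-0 and pif47. Of the 11 genes, 7 were induced in dvl1-1D and 7 in bsk36 (6 in both), and 10 and 11 were higher at an adjusted p under 0.05. The shares induced were 65.6% and 70.5% of all protein-coding members, and 1.32% and 1.3% of all tested genes. GIGANTEA (GI), a clock protein that controls flowering with day length, had 7.46, 7.38 and 6.9 FPKM in Col-0 in WL, rising to 29.4, 33.4 and 30.5 FPKM in low R:FR. In pif47 it had 9.3, 8.65 and 12.7 FPKM in WL and 29.6, 33.6 and 31.8 in low R:FR. Over these genotypes the ranges overlapped in low R:FR, and in WL all pif47 libraries were above those of Col-0. GI rose by a log2 fold change of 1.75 ± 0.11 (SE, limma adjusted p = 3.51e-10) in dvl1-1D and 1.995 ± 0.11 (SE, limma adjusted p = 6.35e-11) in bsk36.

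COL5, a CONSTANS-like B-box gene, was the clock or day-length member with the highest level, at 172, 178 and 159 FPKM in low R:FR in Col-0 and 131, 112 and 122 FPKM in pif47, from 32.7, 36.2 and 31.8 FPKM (Col-0) and 31.1, 29.7 and 39.2 FPKM (pif47) in WL. Its log2 fold change was 1.93 ± 0.09 (SE, limma adjusted p = 5.80e-12) in dvl1-1D and 1.64 ± 0.09 (SE, limma adjusted p = 8.80e-11) in bsk36. CDF5, a DOF factor that delays flowering, had log2 fold changes of 1.52 and 1.87 in these lines, RVE7, a MYB-like gene related to CCA1, had 1.17 and 1.27, BBX28 had 1.098 and 1.12, and BBX29 had 1.22 and 1.18. All 4 genes were induced in both lines.

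PRR7 and PRR9, pseudo-response regulators that repress the morning clock genes CCA1 and LHY, had r of 3.72 and 3.04 in Col-0 and 2.73 and 2.31 in pif47, beside 2.14 and 1.42 in dvl1-1D and 1.85 and 1.62 in bsk36. The difference from Col-0 was not tested because the rule used Col-0. PRR7 had 9.46, 12.97 and 11.2 FPKM in Col-0 in WL and 21.4, 20.8 and 21.5 FPKM in bsk36 in WL. In low R:FR it had 44.0, 48.0 and 37.3 FPKM in Col-0 and 31.7, 38.4 and 48.7 FPKM in bsk36. The WL levels of the 2 genotypes did not overlap and the low R:FR levels did. PRR7 was induced in dvl1-1D, at 1.12 ± 0.14 (SE, limma adjusted p = 5.29e-06), and was under the minimum in bsk36, at 0.87 ± 0.14 (SE, limma adjusted p = 1.04e-04). Without the bsk36 low R:FR library 1 it reached 1.02 there and was called. PRR9 rose by 0.53 ± 0.15 (SE, limma adjusted p = 0.0169) in dvl1-1D and 0.73 ± 0.15 (SE, limma adjusted p = 0.00163) in bsk36, under the minimum in both.

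The LNK genes encode coactivators of the clock that act with REVEILLE factors. LNK1 rose by a log2 fold change of 0.84 in dvl1-1D, under the minimum, and 1.07 in bsk36, where it was induced. LNK3 had 9.75, 16.7 and 13.4 FPKM in Col-0 in WL and 24.5, 25.1 and 23.8 FPKM in bsk36, and in low R:FR 34.0, 29.9 and 29.0 FPKM in Col-0 and 30.8, 33.1 and 36.7 FPKM in bsk36. Its fold change was the smallest of the set, at 0.33 ± 0.14 (SE, limma adjusted p = 0.123) in dvl1-1D and 0.45 ± 0.14 (SE, limma adjusted p = 0.0329) in bsk36. LNK4 had 0.47 and 0.64, also under the minimum. In WL, each library was above each Col-0 library for 10 of these 11 genes in dvl1-1D and for 10 in bsk36. Over all protein-coding members these counts were 26 and 25 of 61, and over all tested genes the shares were 14.1% and 24.6%. Libraries all below those of Col-0 in WL were found for 5 and 4 of the 61, beside 9.69% and 10.8% of all tested genes. The rule favours genes that were low in Col-0 in WL, so these counts are a description.

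Of 13 clock genes listed for comparison, 4 were members (GI, PRR7, PRR9 and LNK1), and 6 had r of at least 2 in Col-0. The share with such an r in Col-0 was 2.17% of genes with a mean of at least 1 FPKM. In dvl1-1D 3 of the 13 were induced (PRR7, GI and LUX) and 1 was repressed (LHY, at a log2 fold change of -1.5). In bsk36 4 were induced (GI, ELF4, LUX and LNK1) and none was repressed, with LHY at -0.75. CCA1, the partner of LHY, was at -0.89 in dvl1-1D and -0.40 in bsk36.

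Of the 4 small peptide genes, RTFL18, DVL3 and RGF6 had r well above the median in Col-0 (14.4, 8.93 and 6.37), GASA7 had 3.21, and in pif47 RGF6 and GASA7 lay nearest the threshold. RTFL18, which encodes the non-secreted peptide overexpressed in dvl1-1D, had 0.46, 0.7 and 0 FPKM in Col-0 in WL and 12.9, 12.8 and 11.1 FPKM in low R:FR. In pif47 it had 0.3, 1.51 and 0.44 FPKM in WL and 6.37, 6.47 and 6.89 FPKM in low R:FR. The pif47 libraries in low R:FR were thus all below those of Col-0 and all above those of either genotype in WL. In bsk36 it rose from 0.45, 0.55 and 0.28 to 5.56, 11.1 and 8.5 FPKM, a log2 fold change of 3.99 ± 0.53 (SE, limma adjusted p = 1.60e-05). In dvl1-1D, where the locus is activated, it had 618, 517 and 528 FPKM in WL and 975, 965 and 788 FPKM in low R:FR. These groups did not overlap, but the log2 fold change was 0.71 ± 0.53 (SE, limma adjusted p = 0.409) and was not called. This SE is not the spread of the dvl1-1D libraries alone. It was pooled over all groups, among them those with WL values at or near 0 FPKM, and was the same in bsk36.

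DVL3 (also RTFL21), of the same peptide family, had 7.42, 5.88 and 6.46 FPKM in Col-0 and 1.2, 1.47 and 2.77 FPKM in pif47 in low R:FR. In WL it had 0.49, 0.09 and 0.3 FPKM in Col-0 and 0.19, 0 and 0.47 FPKM in pif47. It was low in WL in every genotype, with 0.61, 0 and 0.21 FPKM in dvl1-1D and 0.47, 0.26 and 0.27 in bsk36. In low R:FR it had 6.48, 8.17 and 4.88 FPKM in dvl1-1D and 5.62, 4.91 and 7.22 FPKM in bsk36. Its log2 fold changes, 4.53 ± 0.60 (SE, limma adjusted p = 1.38e-05) and 3.81 ± 0.60 (SE, limma adjusted p = 1.08e-04), were large, but with WL values at or near 0 they depend on the 0.1 FPKM added before taking logs. RGF6 (also GOLVEN 1), a secreted peptide gene, had 59.1, 69.4 and 62.1 FPKM in Col-0 and 11.97, 11.9 and 15.9 FPKM in pif47 in low R:FR, from 6.68, 10.6 and 11.4 FPKM (Col-0) and 6.86, 5.54 and 6.58 FPKM (pif47) in WL. Its r in pif47 (2.02) lay just inside the threshold, and in the tested lines it rose by 2.21 ± 0.17 (SE, limma adjusted p = 1.41e-08) and 2.73 ± 0.17 (SE, limma adjusted p = 7.12e-10). GASA7, of the gibberellin-regulated peptide family, was induced by 1.93 in dvl1-1D and 1.71 in bsk36.

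Growth and cell wall genes formed a set of 12, also put together after the values were seen. Of these, 10 were induced in dvl1-1D and 11 in bsk36, beside 65.6% and 70.5% of all protein-coding members. Over all tested genes the shares were 1.32% and 1.3%. FLP1, related to the flowering-promoting factor FPF1, had 3.47, 3.8 and 2.77 FPKM in Col-0 in WL and 77.5, 69.9 and 66.2 FPKM in low R:FR. The pif47 libraries had 1.81, 1.64 and 1.86 FPKM in WL and 17.9, 10 and 15.7 FPKM in low R:FR. The level in low R:FR was thus lower in pif47 with no overlap, and r was 18.6 in Col-0 and 6.62 in pif47. FLP1 rose by a log2 fold change of 3.42 ± 0.20 (SE, limma adjusted p = 2.24e-10) in dvl1-1D and 2.71 ± 0.20 (SE, limma adjusted p = 7.30e-09) in bsk36. BEE1, a brassinosteroid-induced basic helix-loop-helix gene, had 25.4, 23.7 and 19.9 FPKM in Col-0 and 5.41, 5.91 and 5.88 FPKM in pif47 in low R:FR and rose by 2.19 ± 0.18 (SE, limma adjusted p = 3.66e-08) and 2.42 ± 0.18 (SE, limma adjusted p = 9.86e-09) in the tested lines. It was thus induced in the line mutated in BSK3 and BSK6 too.

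AT5G12050 and AT3G13980, annotated as BIG GRAIN 1-like proteins, were induced in both lines, with log2 fold changes of 1.96 and 2.12 for the former and 1.62 and 1.53 for the latter. EXLA1, an expansin-like gene, had 1.40 in dvl1-1D and 2.04 in bsk36. PMEI7, an inhibitor of pectin methylesterase, had 1.62 and 1.51. All 4 genes were thus higher by more than the minimum in both lines. Both AT4G34770 and AT4G38825 are SAUR genes (SAUR1 and SAUR13 in RefSeq) that the rule kept because the deposited values give them no name. SAUR1 rose by 1.89 ± 0.29 (SE, limma adjusted p = 8.22e-05) and 1.76 ± 0.29 (SE, limma adjusted p = 1.92e-04). SAUR13 had 3.84, 1.62 and 0 FPKM in WL and 9.27, 4.08 and 9.16 FPKM in low R:FR in bsk36, where it was induced (limma adjusted p = 0.0318), and 3.52, 3.78 and 3.6 FPKM in WL and 17.5, 5.92 and 6.8 FPKM in low R:FR in dvl1-1D, where it was not called (adjusted p = 0.411). SAUR genes have close copies, between which reads can be split.

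RABA1F, a small GTPase of vesicle traffic, had log2 fold changes of 1.27 in dvl1-1D, where it was called, and 0.90 in bsk36, where it was not. PEX3, an extensin-like gene, had 2.2, 2.44 and 2.89 FPKM in Col-0 and 14.6, 20.5 and 17.6 FPKM in dvl1-1D in WL. It was induced in bsk36, at 1.16 ± 0.28 (SE, limma adjusted p = 0.00546), and not in dvl1-1D, at 0.43 ± 0.28 (SE, limma adjusted p = 0.329). Without the bsk36 low R:FR library 3 or the bsk36 WL library 1, PEX3 fell to 0.91 and 0.92 and was not called. MIOX1, an inositol oxygenase of cell wall precursor synthesis, was called in both lines, at 1.19 and 1.07, and in bsk36 fell to 0.99 and 0.93 without the low R:FR or the WL library 3. AT5G05965, annotated as a cell wall protein, was called at 1.07 and 1.23, and lost its call in dvl1-1D without the low R:FR library 1 (0.83) or the WL library 1 (0.94) or 3 (0.97), and in bsk36 without the low R:FR library 2 (1.12) or 3 (1.00) or the WL library 2 (1.12).

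**Figure D4:**
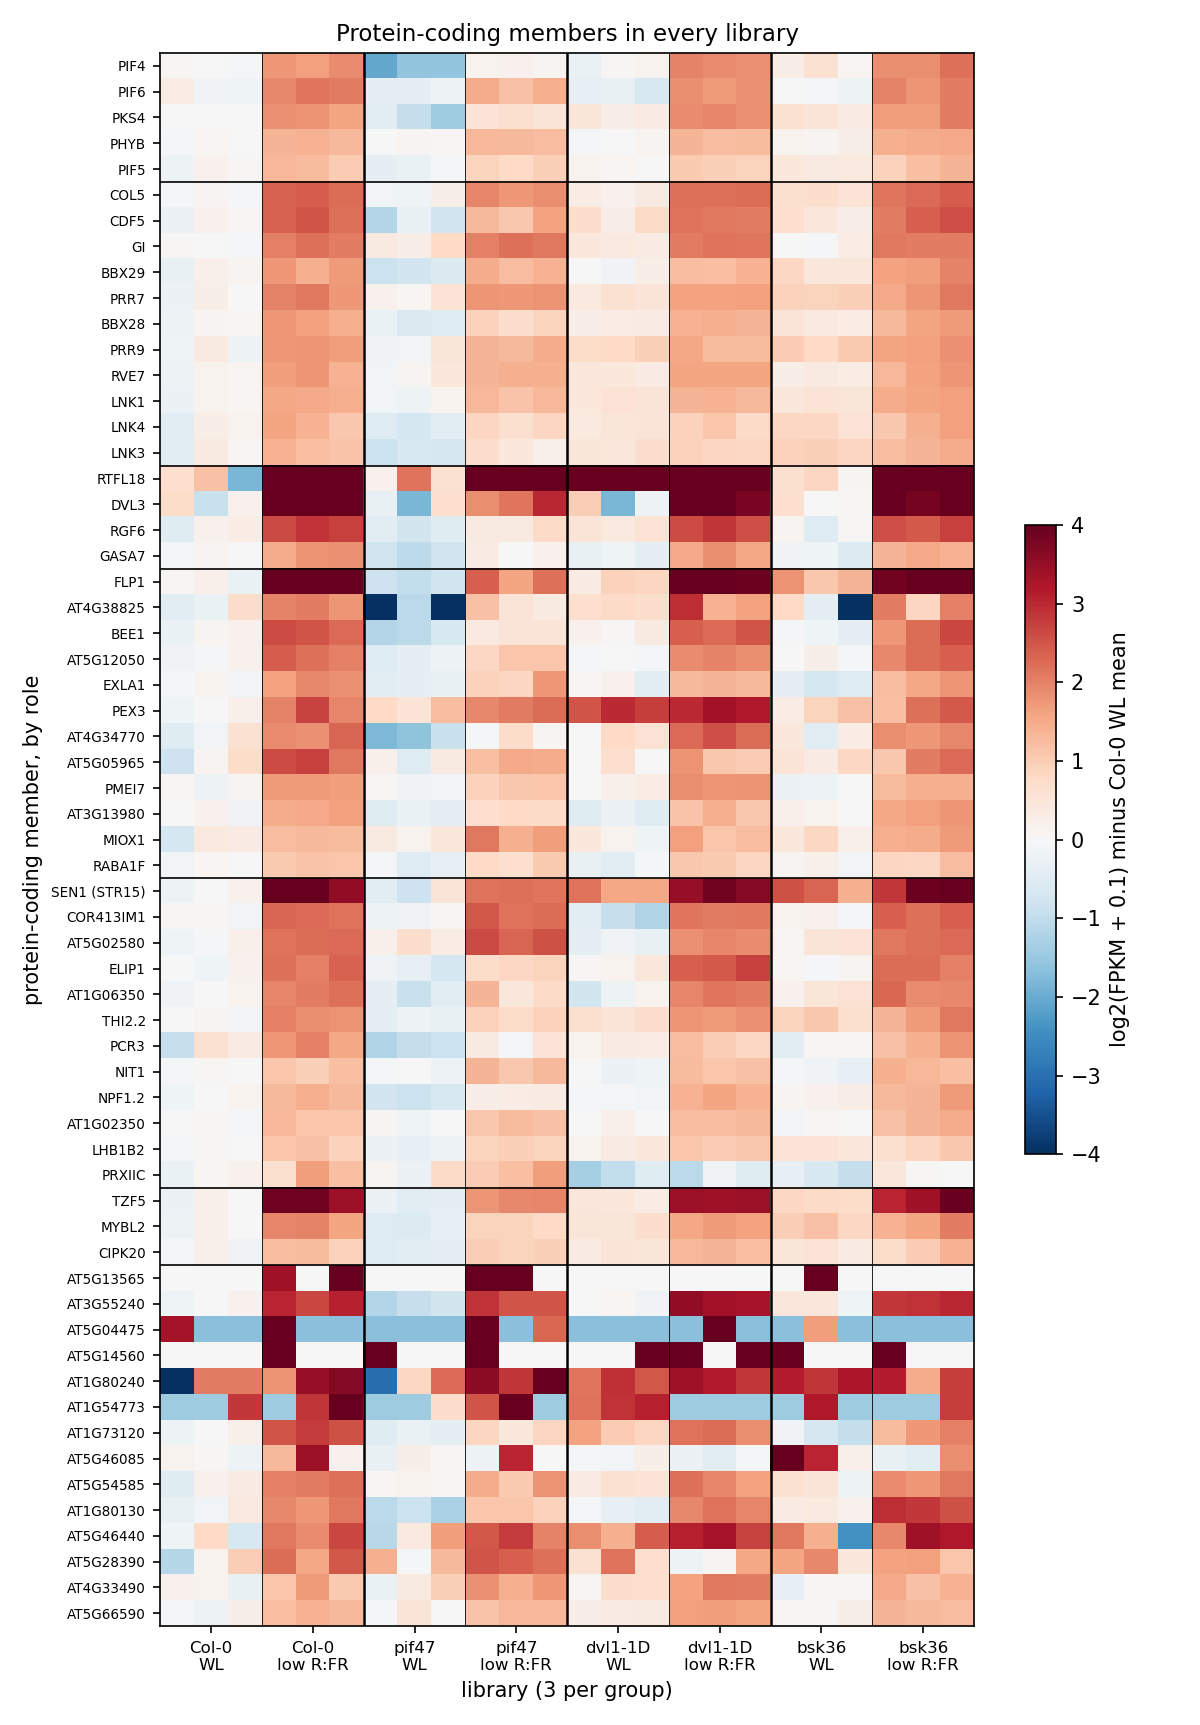
Level of the 61 protein-coding members in each of the 24 libraries (columns), as log2(FPKM + 0.1) minus the mean of the 3 Col-0 WL libraries, on a colour scale from -4 (blue) to 4 (red), with values beyond it in the end colours. Members are grouped by role, from phytochrome and PIF genes at the top to genes of other or unnamed function at the bottom. The low R:FR columns are red in all 4 genotypes for most members, and the bottom group holds the members with values that differ between libraries of 1 group.

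Among plastid, stress and metabolism genes, COR413IM1 had like levels in Col-0 and pif47. This cold-regulated protein of the chloroplast inner envelope had 26.1, 26.6 and 23.3 FPKM in Col-0 in WL and 127, 122 and 114 FPKM in low R:FR. The pif47 libraries had 21.9, 23.0 and 26.8 FPKM in WL and 142, 115 and 120.5 FPKM in low R:FR. The ranges of the 2 genotypes overlapped in both light conditions, and r was 4.70 and 5.19. It rose by 2.94 ± 0.13 (SE, limma adjusted p = 4.90e-12) in dvl1-1D and 2.26 ± 0.13 (SE, limma adjusted p = 2.80e-10) in bsk36. Of 9 tested genes of the cold regulon it was the only member. In dvl1-1D it was the only gene of the 9 that was induced, and in bsk36 COR15A and COR15B were induced as well. COR15A and COR15B had r of 5.39 and 3.17 in Col-0 and 0.865 and 0.540 in pif47.

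SEN1, a gene of dark-induced senescence and sugar starvation, was the protein-coding member with the largest r in Col-0 (22.3) and the smallest r in pif47 relative to Col-0. It had 10.2, 11.8 and 13.1 FPKM in WL and 347, 332 and 137 FPKM in low R:FR in Col-0. In pif47 it had 8.42, 6.56 and 16.6 FPKM in WL and 53.4, 53.7 and 51.3 FPKM in low R:FR. The Col-0 low R:FR library 3 was far below the other two and still above every pif47 library. SEN1 was higher in WL in dvl1-1D (52.4, 34.1 and 34.5 FPKM) and in bsk36 (69.3, 59.1 and 31.2 FPKM) than in Col-0, with no overlap. It rose there by 1.91 ± 0.40 (SE, limma adjusted p = 0.00164) and 1.66 ± 0.40 (SE, limma adjusted p = 0.00551). SEN1 was the only member of 27 carbon starvation genes, of which 7 had r of at least 2 in Col-0 and 1 in pif47. Of the 27, 1 was induced in each of dvl1-1D and bsk36 (SEN1) and 2 and 4 were repressed. Over all tested genes, the shares induced were 1.32% and 1.3%, and the shares repressed 0.45% and 0.701%.

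ELIP1, an early light-inducible protein that protects thylakoids, had 50.2, 44.6 and 56.5 FPKM in Col-0 and 18.1, 19.4 and 20.4 FPKM in pif47 in low R:FR, from 11.1, 9.6 and 12.2 FPKM (Col-0) and 9.82, 8.78 and 6.64 FPKM (pif47) in WL. It rose by 2.32 ± 0.14 (SE, limma adjusted p = 2.20e-10) in dvl1-1D and 2.12 ± 0.14 (SE, limma adjusted p = 7.81e-10) in bsk36. LHB1B2, a light-harvesting chlorophyll protein gene of photosystem II with close copies in the genome, had the highest level of the members. It had 5370.2, 5779 and 5523 FPKM in Col-0 in WL and 12044, 12508 and 10503 FPKM in low R:FR, and 4682, 4406 and 4779.8 FPKM in WL and 10335, 10697 and 10308 FPKM in low R:FR in pif47. Its response in the tested lines stayed under the minimum, at 0.77 ± 0.094 (SE, limma adjusted p = 5.40e-06) and 0.34 ± 0.094 (SE, limma adjusted p = 0.014). In WL it had 6088, 6935 and 7485 FPKM in dvl1-1D and 8169, 8174 and 7467 FPKM in bsk36, above every Col-0 library in WL. The low R:FR ranges of these lines overlapped that of Col-0.

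NIT1, a nitrilase that can make auxin from indole-3-acetonitrile, followed it in level, with 922, 823 and 986 FPKM in Col-0 and 1099, 897 and 1047 FPKM in pif47 in low R:FR, from 413, 437 and 424 FPKM (Col-0) and 412, 421 and 368 FPKM (pif47) in WL. Its levels in Col-0 and pif47 overlapped in both light conditions. NIT1 rose by 1.32 ± 0.085 (SE, limma adjusted p = 6.33e-10) and 1.499 ± 0.085 (SE, limma adjusted p = 1.22e-10). NPF1.2, a nitrate transporter gene, had 1.52 and 1.28, and ADS4 (AT1G06350), annotated as a delta-9 desaturase-like protein, had 2.32 and 1.62. Both were induced in both lines. THI2.2, a thionin gene, was induced in dvl1-1D (1.15) and stayed under the minimum in bsk36 (0.85), reaching 1.03 there without the low R:FR library 1. PCR3, annotated as a cadmium resistance protein, was induced in bsk36 (1.55) and not called in dvl1-1D (0.76). PRXIIC, a peroxiredoxin gene, was called in neither line.

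Of the other regulators, TZF5, which encodes a tandem CCCH zinc finger protein, had 29.4, 29.3 and 21.1 FPKM in Col-0 and 6.68, 7.47 and 7.55 FPKM in pif47 in low R:FR, from 1.6, 2.18 and 1.92 FPKM (Col-0) and 1.59, 1.39 and 1.46 FPKM (pif47) in WL. It rose by 3.03 ± 0.16 (SE, limma adjusted p = 6.98e-11) and 2.70 ± 0.16 (SE, limma adjusted p = 3.73e-10). MYBL2, a repressor of anthocyanin synthesis, was induced in dvl1-1D (1.07) and under the minimum in bsk36 (0.68). CIPK20, a calcium-dependent signaling kinase gene, was under the minimum in both, at 0.85 and 0.59. All 3 genes were higher in low R:FR at an adjusted p under 0.05 in both lines.

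AT3G55240, which has no name in the deposited values, was among the few strongly responding members with a larger r in pif47 (9.60) than in Col-0 (6.82). It had 1.16, 1.42 and 1.63 FPKM in WL and 21.1, 16.1 and 16.1 FPKM in low R:FR in pif47. In Col-0 it had 2.44, 2.76 and 3.1 FPKM in WL and 23.4, 17.9 and 23.96 FPKM in low R:FR. The low R:FR ranges of Col-0 and pif47 overlapped, and all WL libraries of pif47 were below those of Col-0. It rose by 3.43 ± 0.16 (SE, limma adjusted p = 5.80e-12) in dvl1-1D and 2.65 ± 0.16 (SE, limma adjusted p = 3.41e-10) in bsk36. AT1G73120, also without a name there, had 118, 144 and 119 FPKM in Col-0 and 37.0, 27.3 and 37.1 FPKM in pif47 in low R:FR. In WL it had 17.7, 20.8 and 23.4 FPKM (Col-0) and 14.7, 17.2 and 15.7 FPKM (pif47).

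Of the 14 protein-coding members of other or unnamed function, 5 were induced in dvl1-1D and 7 in bsk36, 5 of them in both. Their median log2 fold changes were 1.22 and 0.65. The shares induced were 65.6% and 70.5% of all protein-coding members, and 1.32% and 1.3% of all tested genes. AT1G80130 had log2 fold changes of 2.30 in dvl1-1D and 2.48 in bsk36. AT5G02580, annotated as an argininosuccinate lyase, had 2.16 and 1.80, and AT1G02350, annotated as a protoporphyrinogen oxidase-like protein, had 1.17 and 1.35. Both were counted with the plastid, stress and metabolism genes and not among the 14. AT4G33490, annotated as an aspartyl protease, had 1.46 and 1.42, AT5G54585, uncharacterized, had 1.43 and 1.61, and AT5G66590, annotated as a CAP superfamily protein, had 1.31 and 1.16. These 6 genes were induced in both lines, as was AT3G55240, which is among the 14. AT5G46440 was induced in bsk36 and not called in dvl1-1D, where it had 1.87, 1.34 and 2.79 FPKM in WL and 4.54, 5.21 and 3.39 FPKM in low R:FR. AT1G80240 (DGR1) was called in neither, and AT5G46085, with 42.7, 17.8 and 2.38 FPKM in WL and 1.66, 1.5 and 7.7 FPKM in low R:FR in bsk36, was not called either (limma adjusted p = 0.119).

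The responses of dvl1-1D and bsk36 were compared with each other by an interaction term. Their libraries entered the rule only through the mean level, and the model estimated the spread from all 24 libraries. None of the 86 members passed at an adjusted p under 0.05 in limma, and 20 of the 20682 tested genes did (0.0967%). At an unadjusted p under 0.05, 14 members differed, beside 9.18% of all tested genes. The 2 smallest p-values belonged to AT1G73120 and RTFL18, named here after their values were seen. AT1G73120 rose from 62.4, 41.4 and 37.2 to 93.5, 97.3 and 75.0 FPKM in dvl1-1D and from 18.5, 12.8 and 10.4 to 49.8, 68.3 and 83.7 FPKM in bsk36, and the log2 fold change in dvl1-1D minus that in bsk36 was -1.33 (95% interval -1.96 to -0.71, limma adjusted p = 0.081). It passed without the bsk36 low R:FR library 1 (adjusted p = 0.0296) or the bsk36 WL library 1 (adjusted p = 0.0419). For RTFL18, activated in dvl1-1D, the difference was -3.28 (95% interval -4.84 to -1.71, limma adjusted p = 0.0854), and it passed with a pseudocount of 0.5 (adjusted p = 0.0165) or 1 (adjusted p = 0.0111) or with the dvl1-1D and bsk36 libraries alone (adjusted p = 0.0111). For COR413IM1 the difference was 0.69 (95% interval 0.29 to 1.08, limma adjusted p = 0.198), and it passed without the dvl1-1D WL library 1 (adjusted p = 0.0179). For PHYB it was -0.05 (95% interval -0.21 to 0.11, limma adjusted p = 0.902), and for GI -0.25 (95% interval -0.57 to 0.07, limma adjusted p = 0.674).

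The 25 members that are not protein-coding behaved otherwise. In dvl1-1D 1 of them was induced, AT1G09557, and 1 was repressed, AT1G07563. None was called in bsk36, where the smallest limma adjusted p was 0.0584. Only 4 of the 25 were above 0 in every library, beside 52 of the 61 protein-coding members, and the median number of libraries listed at 0 was 11 of 24. Their median RefSeq length was 228.5 bases, beside 1519 bases for the protein-coding members and 466.5 bases for all tested genes of these types. They made up 29.1% of the members and 4.90% of the tested genes. In 20 of the 24 found in the table, another RefSeq gene overlaps the same stretch. The counting is not stated to use strand, so reads from the shared stretch may not have been told apart. How much of each gene is shared was not examined. Such an overlap was also found for 18 of the 61 protein-coding members, among them PIF6, CDF5, LHB1B2, RGF6, EXLA1, PMEI7, RABA1F, PRXIIC, LNK1, LNK3 and LNK4.

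AT1G09557, a long noncoding RNA that overlaps CKX5, a cytokinin oxidase gene, had 0, 0.87 and 2.53 FPKM in WL and 21.7, 22.3 and 6.6 FPKM in low R:FR in dvl1-1D, and 5.09, 1.79 and 2 FPKM in WL and 21.4, 28.3 and 21.9 FPKM in low R:FR in bsk36. It was higher in every low R:FR library in both lines and in Col-0. In pif47 it had 0, 1.52 and 0.91 FPKM in WL and 1.28, 0.29 and 8.55 FPKM in low R:FR, and the groups overlapped. In bsk36 its P was 0.0107, just over the 0.01 of the call (limma adjusted p = 0.0584). CKX5 itself was induced in dvl1-1D and bsk36, and its r was 3.81 in Col-0 and 1.41 in pif47. AT1G07563 had 1.11, 1.49 and 0.58 FPKM in WL and 0.06, 0.09 and 0 FPKM in low R:FR in dvl1-1D, a fall (limma adjusted p = 0.0409). In pif47 it had 1.12, 0.34 and 0 FPKM in WL and 2.63, 1.57 and 4.35 FPKM in low R:FR.

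**Figure D5:**
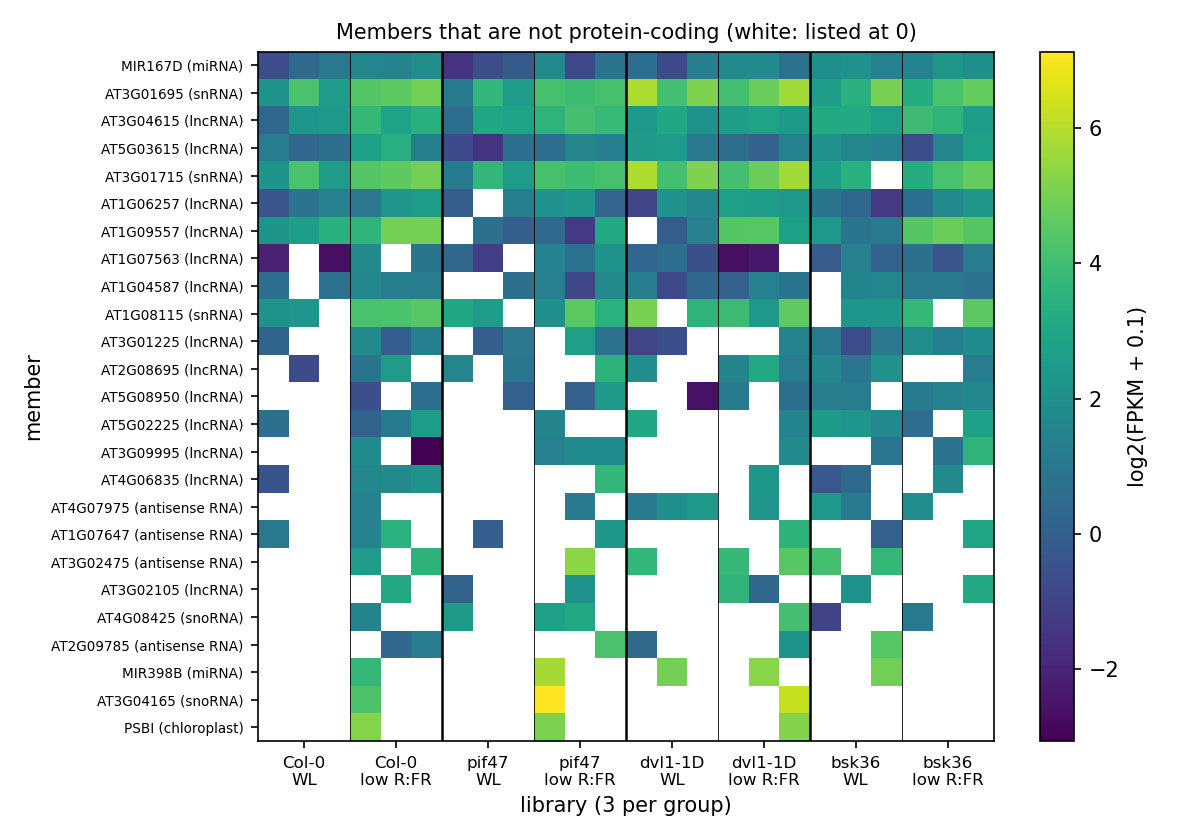
Level of the 25 members that are not protein-coding in each of the 24 libraries (columns), as log2(FPKM + 0.1), with white for values listed at 0, ordered by the number of libraries at 0. Toward the end with most libraries at 0, 1 library of a group carries the value and the others are listed at 0, as for PSBI, AT3G04165 and MIR398B.

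The largest r of all belonged to members of this kind. AT3G04165, a small nucleolar RNA, had 19.3, 0 and 0 FPKM in the low R:FR libraries of Col-0, 139.7, 0 and 0 FPKM in those of pif47 and 0, 0 and 74.5 FPKM in those of dvl1-1D, and was listed at 0 in all other libraries. PSBI, a small subunit of photosystem II encoded in the chloroplast, had 38.7, 0 and 0 FPKM in Col-0, 34.9, 0 and 0 FPKM in pif47 and 0, 0 and 37.2 FPKM in dvl1-1D in low R:FR, and was otherwise listed at 0. In each group where either gene was detected, 1 library of 3 carried the whole value. MIR398B, the precursor of a copper-responsive microRNA, had 13.1, 0 and 0 FPKM in low R:FR in Col-0 and 53.3, 0 and 0 FPKM in pif47, and was listed at 0 in WL in both. In dvl1-1D it had 0, 31.8 and 0 FPKM in WL and 0, 40.0 and 0 FPKM in low R:FR, and in bsk36 0, 0 and 31.0 FPKM in WL and 0 in all 3 low R:FR libraries. It overlaps AT5G14550, as does AT5G14560, a protein-coding member with 0, 0 and 59.4 FPKM in WL and 38.4, 0 and 12.8 FPKM in low R:FR in dvl1-1D, and 17.1, 0 and 0 FPKM in low R:FR in Col-0.

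AT3G02475, an antisense RNA, had 5.82, 0 and 11.3 FPKM in low R:FR in Col-0 and 0, 40.6 and 0 FPKM in pif47, and in dvl1-1D 12.9, 0 and 0 FPKM in WL and 13.5, 0 and 22.4 FPKM in low R:FR. In bsk36 it had 17.1, 0 and 13.1 FPKM in WL and was listed at 0 in all 3 low R:FR libraries. AT4G06835 had 2.96, 3.21 and 4.36 FPKM in low R:FR in Col-0 and 0, 0 and 12.8 FPKM in pif47. AT2G09785 had 0, 0 and 18.1 FPKM in low R:FR in pif47, 1.29, 0 and 0 FPKM in WL and 0, 0 and 4.5 FPKM in low R:FR in dvl1-1D, and 0, 0 and 21.9 FPKM in WL and 0, 0 and 0 FPKM in low R:FR in bsk36. AT3G02475 and AT2G09785 thus had values in WL in bsk36 and none in low R:FR. AT2G08695 had 2.81, 8.33 and 2.21 FPKM in low R:FR in dvl1-1D and 0, 0 and 2.3 FPKM in bsk36, from 3.7, 0 and 0 FPKM (dvl1-1D) and 3.12, 1.82 and 4.47 FPKM (bsk36) in WL. AT5G02225 had 5.54, 4.77 and 3.4 FPKM in WL and 1.38, 0 and 6.66 FPKM in low R:FR in bsk36, and AT4G07975 had 2.09, 4.07 and 5.22 FPKM in WL and 0, 4.63 and 0 FPKM in low R:FR in dvl1-1D. AT5G03615, detected in every library, had 5.2, 5.61 and 1.95 FPKM in WL and 1.38, 1 and 2.58 FPKM in low R:FR in dvl1-1D, and the groups overlapped.

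Of the 3 small nuclear RNAs, AT3G01695 and AT3G01715 (U1 RNAs) had equal values in 23 of 24 libraries, so they were 1 measurement rather than 2. Both had 4.56, 18.3 and 5.63 FPKM in WL and 21.0, 23.9 and 31.5 FPKM in low R:FR in Col-0, and 59.2, 17.1 and 35.6 FPKM in WL and 16.7, 28.6 and 51.8 FPKM in low R:FR in dvl1-1D, where the ranges overlapped. MIR167D, the precursor of a microRNA that targets auxin response factors, had 0.53, 1.25 and 1.91 FPKM in WL and 2.98, 2.71 and 3.82 FPKM in low R:FR in Col-0. Its log2 fold change was 1.08 ± 0.57 (SE, limma adjusted p = 0.214) in dvl1-1D and 0.12 ± 0.57 (SE, limma adjusted p = 0.926) in bsk36, and it was called in neither.

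Among the protein-coding members, 9 were listed at 0 in at least 1 library, and of these 1 was induced in dvl1-1D (DVL3) and 4 in bsk36. AT5G13565 had 0.95, 0 and 24.1 FPKM in low R:FR in Col-0 and 15.1, 15.7 and 0 FPKM in pif47, and was listed at 0 in all 6 libraries of dvl1-1D. AT5G04475 had 16.6, 0 and 0 FPKM in Col-0 and 11.6, 0 and 1.45 FPKM in pif47 in low R:FR, and AT1G54773 had 1.11, 1.89 and 2.19 FPKM in WL and was listed at 0 in all 3 low R:FR libraries of dvl1-1D. AT5G13565 and AT5G04475 thus rested on 1 or 2 libraries of each low R:FR group, and AT1G54773 was above 0 in every dvl1-1D library in WL. AT5G28390, annotated as an RNA-binding protein, was above 0 in every library but had 0.96, 3.04 and 1.01 FPKM in WL and 0.51, 0.65 and 1.94 FPKM in low R:FR in dvl1-1D, with overlap. When each of the 12 Col-0 and pif47 libraries was left out in turn, 42 of the 61 protein-coding members and 1 of the 25 others met the rule every time.

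Other hormone and stress lists held no member: abscisic acid (15 tested genes), gibberellin and cytokinin metabolism (16), brassinosteroid (18), and jasmonate and defense (11). Of the 16 gibberellin and cytokinin genes, 4 were induced in each of dvl1-1D and bsk36 (GA20OX1, GA2OX1, GA2OX6 and CKX5) and 1 was repressed (ARR15). None of these 16 had r of at least 2 in pif47, and 4 had it in Col-0. Of 13 shade growth markers that the rule left out by name or that belong to those families, 11 had r of at least 2 in Col-0 and 6 in pif47, and 9 were induced in dvl1-1D and 10 in bsk36. Over genes with a mean of at least 1 FPKM, r of at least 2 was found for 2.17% in Col-0 and 0.951% in pif47.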

How the data were processed

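The values were the FPKM that the authors deposited with 2 decimals for 24 libraries, 3 for each of 8 groups. The libraries were prepared and sequenced by a company, and the submitters' processing notes name fastp, cutadapt, HISAT2, DESeq2 and TAIR10. The counting tool and annotation are not given in the sources used here. FPKM hold no read numbers, so no counting interval was computed. The 8 columns of group means were not used. Genes were matched by locus code to a RefSeq table of TAIR10.1 (32548 codes found), which gave names, types and lengths. Overlaps were found from its gene coordinates. No promoter sequence was analysed here.

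Genes with a mean of at least 0.5 FPKM over all libraries were tested. The main model had 1 mean per group and no replicate term, and took log2(FPKM + 0.1) as its response. It ran in R 4.3.3 with the limma package, version 3.58.1, whose moderated statistics used a mean-variance trend. All fold changes are on this scale, which understates those of low genes. The thresholds of a log2 fold change of 1 and P of 0.01 are those of the study. P-values were adjusted by Benjamini-Hochberg over all tested genes. Contrasts in Col-0 and pif47 were not tested, since they chose the members. The fit was tested on simulated data. Tables and figures were made in Python 3.11.15 with pandas 2.3.3 and matplotlib 3.10.9.

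The members and gene lists were chosen with earlier results of these data known, and the sets of members by role were put together after their values were seen. By rule, the members named included the 10 with the largest geometric mean of r in Col-0 and pif47, the 5 with the largest and the 5 with the smallest r in pif47 relative to Col-0, the 5 highest in low R:FR, all on a list, and the 5 with the smallest log2 fold change in dvl1-1D and in bsk36. The others were named to cover each role, after their values were seen. Alternatives were other pseudocounts, filters, scaling, libraries in the fit, a replicate block, other thresholds of the rule and the omission of each library in turn.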

Additional observations from a re-analysis of the deposited data

How the results depend on the processing

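The number of members depended on the rule: r of at least 1.5 gave 282, r of at least 3 gave 24 and a mean of at least 5 FPKM gave 57 (49 protein-coding), while leaving out 1 Col-0 or pif47 library gave 79 to 100. With each low R:FR library also above each WL library in both genotypes, 58 members were left, 55 of them protein-coding. Members called induced numbered 39 to 41 in dvl1-1D and 42 to 44 in bsk36 under the other settings, and 40 to 42 and 38 to 44 when 1 library was left out. The count of members with a different response in dvl1-1D and bsk36 was 0, and 1 with a pseudocount of 0.5 or 1 or with the dvl1-1D and bsk36 libraries alone (RTFL18 each time), and 0 to 1 with 1 library left out. Over 55 named genes with no library at 0 in these lines, 2068 values kept their direction and call, 16 lost the call, 4 gained it and 2 changed sign. Both that changed sign were small: AT5G03615 in bsk36 (-0.48, with omissions from -1.23 to 0.44, the latter without the bsk36 low R:FR library 1) and AT5G28390 in bsk36 (0.14, with omissions from -0.31, without the bsk36 WL library 3, to 0.45). MIOX1 and AT5G05965 also lost calls with larger pseudocounts (MIOX1 0.97 in dvl1-1D and 0.90 in bsk36, AT5G05965 0.69 and 0.89, with a pseudocount of 1), which lower the fold change of low genes.

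Nothing in the labels says that equal replicate numbers share a batch. Libraries with the same number correlated in their deviations from the group means between -0.11 and 0.25 (12 comparisons, 7 over 0.1), and 9 of 12 correlated best with their own number. With the replicate block, 41 members were induced in dvl1-1D, 44 in bsk36 and 0 differed between them.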
